A study of Rattus norvegicus with 4 samples.

Results

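The metalloproteases of the matrix metalloprotease (Mmp), ADAM (Adam) and ADAMTS (Adamts) families were followed through rat astrocyte cultures with and without neurons. Their inhibitors, the Timp genes and Reck, were followed with them. ADAMTS-like (Adamtsl) genes came in with Adamts by name and are not described here as enzymes. Members were taken by name, as every non-control probe whose gene name begins with one of these family names and a number (for Adamts, with the family name alone) or equals Reck. The rule gave 75 probes of 66 genes, out of 41012 probes and 35658 gene names on the array. RNA was hybridized to 4 two-colour Agilent arrays of the rat genome, which share 1 slide. Each array held co-culture harvested after cold jet (CC-CJ), in Cy3. Astrocytes alone after cold jet (AA-CJ) carried Cy5 on 2 arrays, and whole co-culture without cold jet (CC) carried Cy5 on the other two.

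In each group the astrocytes were primary cells of Wistar rat pups at postnatal day 1, first grown in medium with 10% fetal bovine serum. In CC and CC-CJ, hippocampal neurons of mouse embryos at embryonic day 18 had been plated on the astrocyte layer, in supplemented Neurobasal medium. AA-CJ received no neurons and was otherwise kept under similar culture conditions, and no group carried a mutation or a drug. For cold jet, chilled buffered saline was pipetted over the wells to detach neurons, and the cells left on the plate were harvested. Replicates came from different pools of animals, so that no array stands for a single animal. The neurons being from mouse, their RNA is read by probes made for rat sequence, and neuronal levels are those that such probes can bind.

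Metalloproteases cut proteins with a zinc ion in the active site. Mmp enzymes degrade matrix proteins and cut other proteins at the cell surface, and the membrane-type Mmps do so while anchored in the membrane. Many Adam proteins shed the outer part of membrane proteins such as growth factor precursors and adhesion molecules, and Adamts enzymes are secreted and cut matrix proteins, among them the large proteoglycans of brain matrix. Timp proteins are secreted inhibitors that block the active site, and Reck is an inhibitor anchored in the membrane.

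The values below are log2 differences, so that 1 is a doubling. M is log2 of Cy3 over Cy5 on 1 array, and is positive where CC-CJ was higher. A gene was tested when a probe of it was well above background on both arrays of at least 1 of the RNA groups, counting CC-CJ on the AA-CJ arrays and CC-CJ on the CC arrays apart. This left 44 probes of 36 member genes, and 21386 genes in all. A gene was called where the adjusted p of limma over these genes was under 0.05. CC and AA-CJ were compared as the difference of the mean M of the AA-CJ arrays and that of the CC arrays. Both carried Cy5, so a dye effect common to all arrays drops out of that comparison, whereas dye and condition cannot be told apart in the other two. CC-CJ enters all of them.

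Of the 36 genes tested, limma called 2 in CC-CJ versus AA-CJ, 1 in CC-CJ versus CC and 1 in CC versus AA-CJ. The shares over all 21386 genes were 3.07%, 2.34% and 2.64%. The calls fell on 3 genes, and the share of all genes called in at least 1 comparison was not computed. Relative to AA-CJ, Reck was higher and Adam15 lower in CC-CJ. Mmp24 fell from CC to CC-CJ and was higher in CC when compared with AA-CJ. The promoters of these 3 genes are given here as the sequence around the start of each gene that was called. They are rat sequence from RefSeq, build GRCr8, each a window of 300 bases across the annotated start with most of it before the start, 5′ to 3′ on the gene's own strand. Capitals mark the GC box GGGCGG on either strand. The AP-1 site TGANTCA, a sequence known from several Mmp promoters, was searched on both strands as well and has no match in these windows.

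Reck (chr5:62898467-62898766, plus strand): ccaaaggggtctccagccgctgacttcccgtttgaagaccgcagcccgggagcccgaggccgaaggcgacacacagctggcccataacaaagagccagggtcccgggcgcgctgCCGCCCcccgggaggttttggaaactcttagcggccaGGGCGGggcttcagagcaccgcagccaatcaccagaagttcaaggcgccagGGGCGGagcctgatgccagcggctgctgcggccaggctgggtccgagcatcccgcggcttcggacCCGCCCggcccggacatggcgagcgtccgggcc

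Adam15 (chr2:177062800-177063099, minus strand): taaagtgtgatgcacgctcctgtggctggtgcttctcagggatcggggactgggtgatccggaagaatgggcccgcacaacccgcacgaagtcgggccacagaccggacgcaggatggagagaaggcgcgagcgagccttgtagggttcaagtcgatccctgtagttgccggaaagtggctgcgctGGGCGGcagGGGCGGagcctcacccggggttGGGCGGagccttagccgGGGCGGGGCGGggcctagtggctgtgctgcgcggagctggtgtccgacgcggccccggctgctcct

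Mmp24 (chr3:164738976-164739275, plus strand): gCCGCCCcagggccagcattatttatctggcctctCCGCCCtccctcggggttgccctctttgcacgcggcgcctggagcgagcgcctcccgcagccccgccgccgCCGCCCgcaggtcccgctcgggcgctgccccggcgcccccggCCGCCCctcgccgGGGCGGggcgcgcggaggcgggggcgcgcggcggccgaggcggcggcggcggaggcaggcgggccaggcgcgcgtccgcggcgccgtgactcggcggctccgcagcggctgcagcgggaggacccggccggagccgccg

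GGGCGG was present 4 times in the Reck window and 5 times each in those of Adam15 and Mmp24, counting matches that overlap. Of all 33469 promoters in the RefSeq table, 33.1% held it at least once, against 24 of the 52 members with an entry (46.2%). TGANTCA was held by 7.33% of all promoters and by 7 of the 52 members (13.5%). A match describes the letters of the window and is not a measured binding site.

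Reck was the inhibitor that rose with co-culture. M was 0.79 and 0.74 on the AA-CJ arrays, and the level in CC-CJ thus lay above that of AA-CJ on both. The mean difference was 0.77 (standard error 0.082, 95% interval 0.57 to 0.96), 1.70-fold, with an adjusted p of 0.0107 from limma. Reck lay well above background in every channel of every array. As log2 normalized intensity, AA-CJ was at 9.98 and 9.87, CC-CJ at 10.8 and 10.6 on the same arrays, CC-CJ at 10.7 and 10.7 on the CC arrays, and CC at 10.5 and 10.5. AA-CJ was the lowest group and did not overlap with any other.

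On the CC arrays the M of Reck was 0.26 and 0.15, with a mean difference of CC-CJ over CC of 0.21 (adjusted p = 0.276 from limma). Reck was thus not called lower after removal of the neurons. Between CC and AA-CJ, in the same dye, the difference was 0.56 (95% interval 0.28 to 0.83) and was not called (adjusted p = 0.0654 from limma). The probes of Reck lie side by side at chr5:60407087-60407146 and chr5:60407194-60407253 of the rat build rn4. Both were called on their own, with adjusted p of 0.0144 and 0.0076 from limma over probes. Of all genes tested, 155 had a larger difference in the same direction. Reck moved with the normalization: the local regression on intensity put it at 0.77, while centring each array on its median alone put it at -0.37 where the median of all genes was at -0.48, so that on that scale it stood above the median gene but was called lower (adjusted p = 0.0218 from limma). It was not called with plain background subtraction (adjusted p = 0.0884), with the scanner's own log ratio (adjusted p = 0.103), with a trended and robust prior in limma (adjusted p = 0.102), or once the first AA-CJ array was left out (difference 0.74, adjusted p = 0.0662).

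Adam15, a membrane-anchored metalloprotease with a disintegrin domain that binds integrins, was lower with co-culture. M was -0.46 and -0.70 on the AA-CJ arrays. The mean difference was -0.58 (standard error 0.105, 95% interval -0.83 to -0.33), or 1.495-fold lower in CC-CJ, with an adjusted p of 0.0428 from limma. In log2 normalized intensity AA-CJ was at 13.6 and 13.9, and CC-CJ at 13.2 on each of its 4 channels. CC lay at 13.0 and 13.3, below both AA-CJ values. CC-CJ and CC overlapped, with M of 0.13 and -0.13 and a mean difference of -0.0009 (95% interval -0.25 to 0.25). Between CC and AA-CJ the difference was -0.58, with a wider interval of -0.93 to -0.23, and was not called (adjusted p = 0.112 from limma). The probe lies at chr2:181527175-181527233 of rn4, and 186 genes fell further. This call was close to the threshold. It was lost when replicate 1 of the AA-CJ arrays was left out (adjusted p = 0.0951) and when replicate 2 was (adjusted p = 0.149). It was also lost in 7 other settings, with adjusted p from 0.061 for loess on intensity and location to 0.164 for the scanner's log ratio, though the value stayed below 0 in all 19 settings tried, from -0.46 to -2.10, the latter with median centring alone.

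Mmp24, the membrane-type metalloprotease MT5-MMP known from neurons, where it can cut N-cadherin, had the largest differences among the members. On the CC arrays M was -2.33 and -2.53, and the mean difference of CC-CJ over CC was -2.43 (standard error 0.101, 95% interval -2.67 to -2.19). This is 5.39-fold lower after cold jet, with an adjusted p of 0.000111 from limma, and 9 of the 21386 genes fell further. In CC it was 2.83 higher than in AA-CJ (standard error 0.142, 95% interval 2.49 to 3.17), 7.11-fold, with an adjusted p of 0.000229 from limma. 19 genes rose further there. By the wording used here, Mmp24 was lost with cold jet and higher with neurons present. In bulk RNA, fewer cells of a type and less RNA per cell cannot be told apart.

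The levels of Mmp24 followed the same order. AA-CJ was at 7.20 and 7.37 in log2 normalized intensity, CC-CJ at 7.73 and 7.64 on the AA-CJ arrays, CC-CJ at 8.33 and 8.25 on the CC arrays, and CC at 10.7 and 10.8. None of these groups overlapped. Both CC-CJ sets carry the same label and dye and still did not overlap, which is a difference between array sets. Mmp24 was well above background in AA-CJ too, so that some signal was present without neurons. With the AA-CJ level subtracted, the signal remaining after cold jet was 11.9% and 8.72% of that in CC. The mean was 10.3% ± 2.26 (SD, n = 2), and 89.7% was removed. Each share used the AA-CJ level of the same replicate number, although the numbers were not taken to pair the arrays. The SD depends on that choice. The remaining share was 18.6% without that subtraction and 3.28% with the CC-CJ levels of the AA-CJ arrays. On the AA-CJ arrays M was 0.53 and 0.27, and the mean difference of 0.40 was not called (adjusted p = 0.0819 from limma). The file places the probe of Mmp24 at chr4:143614161-143614220 of rn4, whereas RefSeq has the gene on chromosome 3. The probe is named here through its accession, which RefSeq gives to Mmp24.

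Part of the neuron marker list moved with Mmp24. Of 12 neuron markers, all tested, 7 fell from CC to CC-CJ, with a median of -1.17 over the list, and 6 were higher in CC relative to AA-CJ. Their summed linear intensity was 18605 and 19169 in CC, 8336 to 8732 in CC-CJ, while AA-CJ gave 8817 and 9367. Snap25, Dcx and Rbfox3 were not well above background on either AA-CJ array. In CC-CJ over AA-CJ, 3 neuron markers were called higher, which were Gap43 (2.03), Mapt (0.63) and Dcx (0.87). Those 3 were called lower in CC-CJ than in CC. Reck was not, nor were the neuron markers Stmn2, Syt1, Map2, Nefm and Syn1. Stmn2 was at -0.27 in CC over AA-CJ, without a call. The part of neuronal RNA in the value of any member was not tested.

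**Figure D1:**
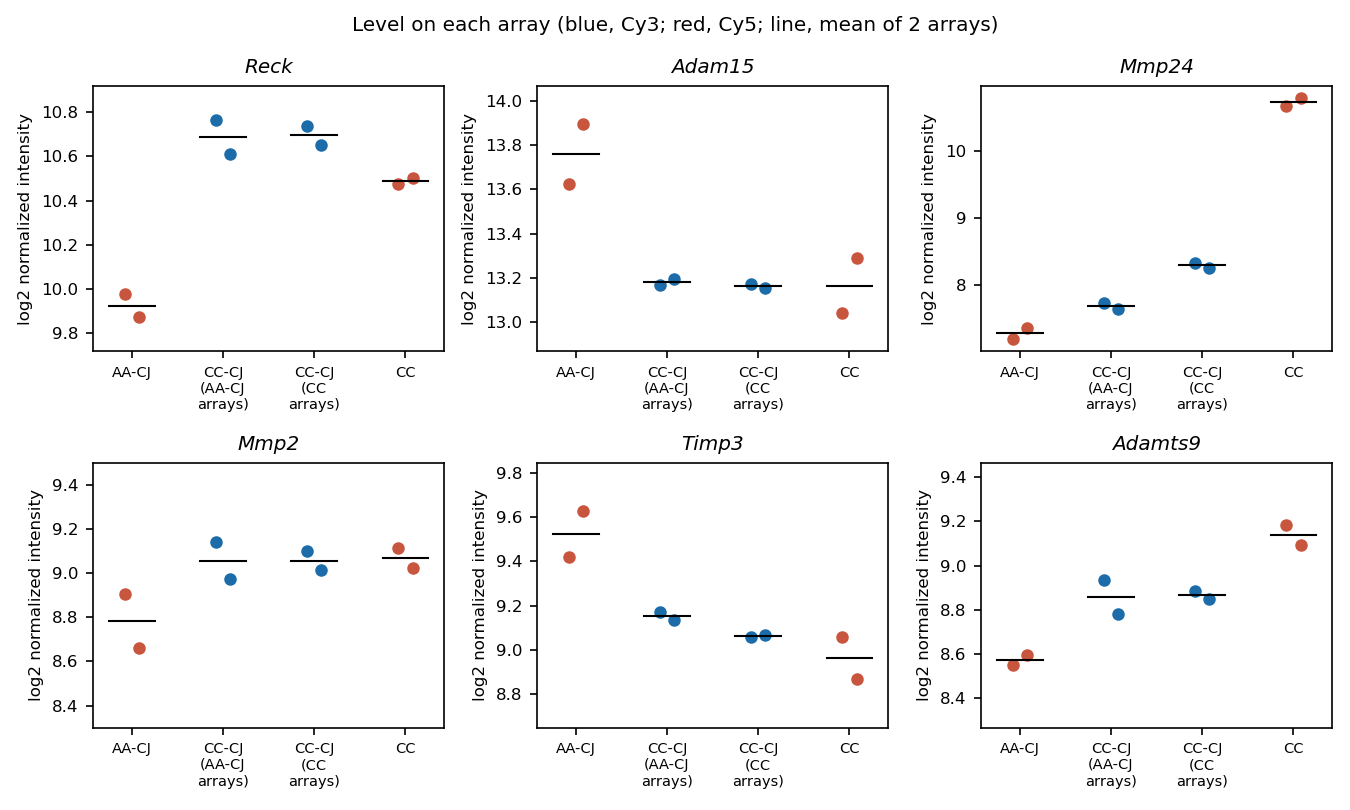
Log2 normalized intensity of 6 members (vertical axis, a separate range for each) in AA-CJ, CC-CJ of the AA-CJ arrays, CC-CJ of the CC arrays and CC; each point is 1 array (replicate 1 left, replicate 2 right), blue is Cy3, red is Cy5, and the line is the mean of the pair. Reck was lowest in AA-CJ at 9.98 and 9.87, Adam15 highest there at 13.6 and 13.9, and Mmp24 highest in CC at 10.7 and 10.8.

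In each comparison the called share of the members and their median lay close to those of all genes. In CC-CJ over AA-CJ, 1 of 36 was called higher and 1 lower, where 3.07% of all 21386 genes were called in either direction (1.92% higher and 1.15% lower). Without adjustment of p, 7 members (19.4%) were higher and 3 (8.33%) lower at 0.05, against 10.8% and 11.8% of all genes. The median of the members was 0.037, against -0.015 for all genes. In CC-CJ over CC, 1 of 36 was called lower and none higher by limma. Of all genes 2.34% were called, with 2.24% lower and 0.0982% higher. Unadjusted, 4 members (11.1%) were higher and 4 (11.1%) lower, against 5.17% and 11.7% of all genes. The member median was -0.0096, and that of all genes was -0.023. In CC over AA-CJ, 1 of 36 was called higher and none lower by limma. Of all genes 2.64% were called, with 2.56% higher and 0.0795% lower. Unadjusted, 6 members (16.7%) were higher and 2 (5.56%) lower, against 11.3% and 6.43% of all genes. The member median was 0.028, against 0.0015 for all genes. Called shares of 1 or 2 in 36 are close to these backgrounds. Unadjusted, the share of members was above that of all genes for higher and below it for lower in each comparison. Whether this sets the members apart from other genes was not tested.

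The members that were not called lay between -0.37 and 0.40 in CC-CJ over AA-CJ and between -0.38 and 0.28 in CC-CJ over CC. In CC over AA-CJ they lay between -0.58 (Adam15) and 0.56 (Reck), where the intervals were wider. Over all 36 members, the median half-width of the 95% interval was 0.22 in each comparison with CC-CJ and 0.32 between CC and AA-CJ. In CC-CJ over AA-CJ all 36 intervals lay inside -1 to 1 on this scale, and in each of the other comparisons 35 of 36 did, with Mmp24 as the exception. The scale compresses differences of dim members such as Adam10, Adam17 and Mmp15, and with median centring alone Adam15, Timp2, Timp1, Timp3, Mmp14 and Mmp28 lay below -1 in CC-CJ over AA-CJ. M had the same sign on both arrays for 23 of 36 members in CC-CJ versus AA-CJ and for 18 of 36 in CC-CJ versus CC, against 65.6% and 65.1% of all genes. The median difference between replicate arrays was 0.13 and 0.18.

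**Figure D2:**
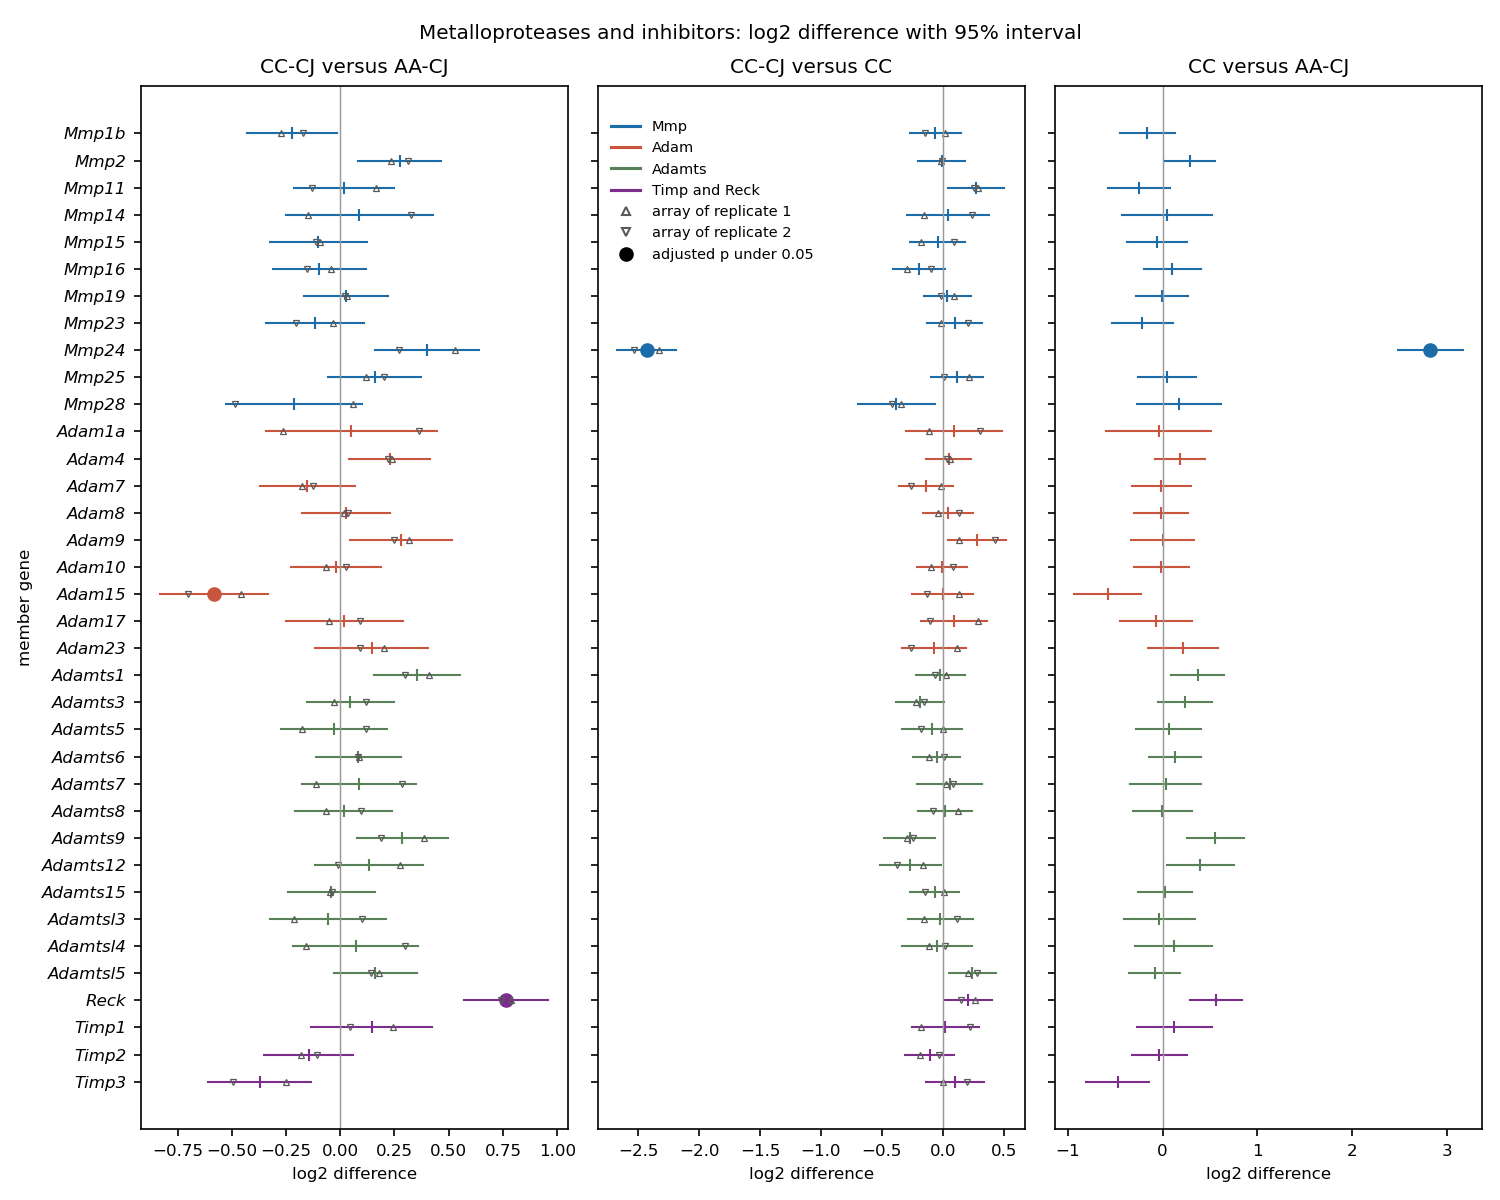
Log2 difference of the 36 member genes tested (rows, coloured by family) in the comparisons CC-CJ versus AA-CJ, CC-CJ versus CC and CC versus AA-CJ, with bars for the 95% interval of limma, ticks for means that were not called, filled circles for adjusted p under 0.05, and triangles for the single arrays in the first and second panel. The horizontal ranges differ between panels, and Mmp24 lies apart at -2.43 and 2.83 where most intervals cross 0.

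Among the inhibitors, Timp1, Timp2 and Timp3 were all measured in every channel, and none was called. Timp2, which also takes part in the activation of pro-Mmp2 by Mmp14, had a log2 intensity of 15.9 to 16.2 over the 8 channels. Its differences were -0.15 in CC-CJ over AA-CJ and -0.11 in CC-CJ over CC. Timp1, an inhibitor that glia make in response to injury and inflammation, lay at 14.52 to 14.98, and its M was 0.24 and 0.05 on the AA-CJ arrays and -0.18 and 0.22 on the CC arrays. The arrays of CC-CJ versus CC thus took opposite signs.

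Timp3, the inhibitor that binds to the matrix and also blocks Adam17, had M of -0.25 and -0.50 on the AA-CJ arrays. Its level was 9.42 and 9.63 in AA-CJ, above the 9.06 to 9.17 of the CC-CJ channels and the 9.06 and 8.87 of CC. The difference of -0.37 (95% interval -0.61 to -0.14) had an adjusted p of 0.0922 from limma and was not called, and it was the lowest among the uncalled members of that comparison. Between CC and AA-CJ it was -0.47 (adjusted p = 0.157). Timp4 has no probe under its gene name. A pair of probes carry it in their description, stand outside the rule, and gave 0.091 and 0.098 in CC-CJ over AA-CJ, with neither called.

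Of 23 Mmp genes, 11 were tested and Mmp24 was called. Mmp2, gelatinase A, had M of 0.23 and 0.31 on the AA-CJ arrays, and AA-CJ at 8.91 and 8.66 was below the CC-CJ levels of 9.14 and 8.97 beside it. The difference of 0.27 was not called (adjusted p = 0.110 from limma), nor was that of 0.28 between CC and AA-CJ. M on the CC arrays was -0.012 and -0.010, so CC-CJ and CC nearly coincided. Mmp14, the membrane-type enzyme that activates pro-Mmp2, was at 12.1 to 12.5 over the channels. Its M was -0.15 and 0.32 on the AA-CJ arrays, and its replicates took opposite signs there and on the CC arrays.

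Of the other membrane-type enzymes, Mmp15 was at -0.10, Mmp16 at -0.097 and Mmp25 at 0.16 in CC-CJ over AA-CJ, none of them called by limma, and Mmp17 was not tested. Mmp15 lay at 6.45 to 6.69 over the channels, close to the lowest levels that can be told from background, where the normalization draws differences towards 0. Mmp25 lay lower still, at 6.09 to 6.43, and was well above background only in CC-CJ of the AA-CJ arrays. Mmp16 had a difference of -0.20 in CC-CJ over CC without a call (adjusted p = 0.328 from limma). Its probes differed there, at -0.37 and -0.025, with adjusted p of 0.0900 and 0.938 from limma over probes. Mmp11, a stromelysin-like enzyme, was at 0.29 and 0.26 on the CC arrays, and its mean of 0.27 was not called (adjusted p = 0.241).

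Mmp28, also called epilysin, had M of -0.34 and -0.42 on the CC arrays, and its mean of -0.38 was the lowest among uncalled members of CC-CJ versus CC (adjusted p = 0.226 from limma). Of the members tested, its CC-CJ level differed most between the array sets. CC-CJ was at 9.86 and 9.87 on the AA-CJ arrays and at 9.08 and 8.41 on the CC arrays, although both sets are CC-CJ in Cy3. On the AA-CJ arrays its replicates were at 0.06 and -0.48, on opposite sides of 0.

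The remaining 12 Mmp genes were not well above background on both arrays of any group and were not tested. They include Mmp9, gelatinase B, Mmp3, Mmp10 and Mmp7 of the stromelysin and matrilysin kind, the collagenases Mmp8, Mmp13 and Mmp1a, Mmp12, the macrophage elastase, and Mmp17. The levels of Mmp9 were 6.01 to 6.15 over the 8 channels, each a mean of 10 spots.

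Of 19 Adam genes, 9 were tested and Adam15 was called. The main sheddases of the family lay near background and were not called. Adam10 was at 6.33 to 6.52 over the channels, with differences of -0.020, -0.0080 and -0.012 in the 3 comparisons. In CC-CJ of the AA-CJ arrays Adam10 was not well above background. Its observed level in AA-CJ was 1.01-fold that of CC-CJ, which is not a lower bound. Its M took opposite signs on the AA-CJ arrays, at -0.067 and 0.027. Adam17, which releases Tnf and ligands of the epidermal growth factor receptor, was at 6.60 to 7.21, with M of -0.05 and 0.09 on the AA-CJ arrays. At these levels a difference of moderate size is compressed, so that the narrow values say little of the true ratio.

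Adam9, another sheddase, had positive M on every array, at 0.32 and 0.25 on the AA-CJ arrays and 0.13 and 0.43 on the CC arrays. Neither mean, of 0.28 each, was called (adjusted p = 0.159 and 0.234 from limma), and CC over AA-CJ was 0.0023. One of its probes lay past the selection limits of the study's methods on both AA-CJ arrays and the other did not. Adam23, which lacks protease activity and binds Lgi1 at the surface of neurons, was at 6.38 to 6.71 and was not called in any comparison. Adam11, of the same kind, was not tested, since it was not well above background.

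Of 20 Adamts and Adamtsl genes, 12 were tested and none was called by limma, though 2 were higher in CC-CJ over AA-CJ at an unadjusted p under 0.05, where 10.8% of all genes were. These were Adamts1 and Adamts9, both of which can cut versican. Adamts9 was at 8.55 and 8.59 in AA-CJ, at 8.94 and 8.78 in CC-CJ on the same arrays, and at 9.18 and 9.09 in CC. CC lay above the other groups without overlap. The difference was 0.29 in CC-CJ over AA-CJ, -0.27 in CC-CJ over CC, and 0.56 in CC over AA-CJ (95% interval 0.26 to 0.86, adjusted p = 0.0811 from limma).

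Adamts1 had M of 0.41 and 0.30 on the AA-CJ arrays and a mean of 0.35 (adjusted p = 0.0713 from limma). Its level in AA-CJ was 6.25 and 6.17, where it was well above background on 1 of the 2 arrays. On the CC arrays the mean was -0.021. Adamts5, an aggrecanase, lay between 7.68 and 8.02 in all channels and changed by -0.027 and -0.090 in the comparisons with CC-CJ. Adamts4, the other main aggrecanase, was not tested.

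By detection, 31 member genes were well above background on both arrays in AA-CJ and 35 in CC. In CC-CJ the number was 31 on the AA-CJ arrays and 26 on the CC arrays, a difference between array sets of one condition. 30 of the 66 were in none of these groups. The other 36 are the members tested, where 21386 of all 35658 gene names were tested. Over all probes, 58.5% and 56.3% were well above background in AA-CJ, and 62.5% and 62.6% in CC. In CC-CJ the shares of all probes were 54.2% and 54.4% on the AA-CJ arrays, and 55.7% and 50.1% on the CC arrays. The share of all genes in each group was not computed. Where the sides differed in being well above background, the observed ratio was 1.01-fold to 1.17-fold in favour of the side that was. These ratios are not lower bounds. The highest was Mmp1b, in AA-CJ over CC-CJ. The exception was Adamts3, at 0.046 in CC-CJ over AA-CJ although CC-CJ was not well above background there.

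By the selection limits of the study's methods, which ask for M beyond 2 SD of the array's mean on both AA-CJ arrays, 3 member probes were higher and none lower. They were both probes of Reck and 1 of the Adam9 probes. The methods also ask that probes of a gene give comparable results, and the Adam9 probes, at 0.52 and 0.045, differed. Of all 41000 probes with a value, 0.824% were selected as higher and 0.627% as lower. The limits were 0.47 and -0.48 on replicate 1 and 0.43 and -0.44 on replicate 2. Adam15, with an M of -0.46 on replicate 1, lay just inside the lower limit there and past it on replicate 2.

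**Figure D3:**
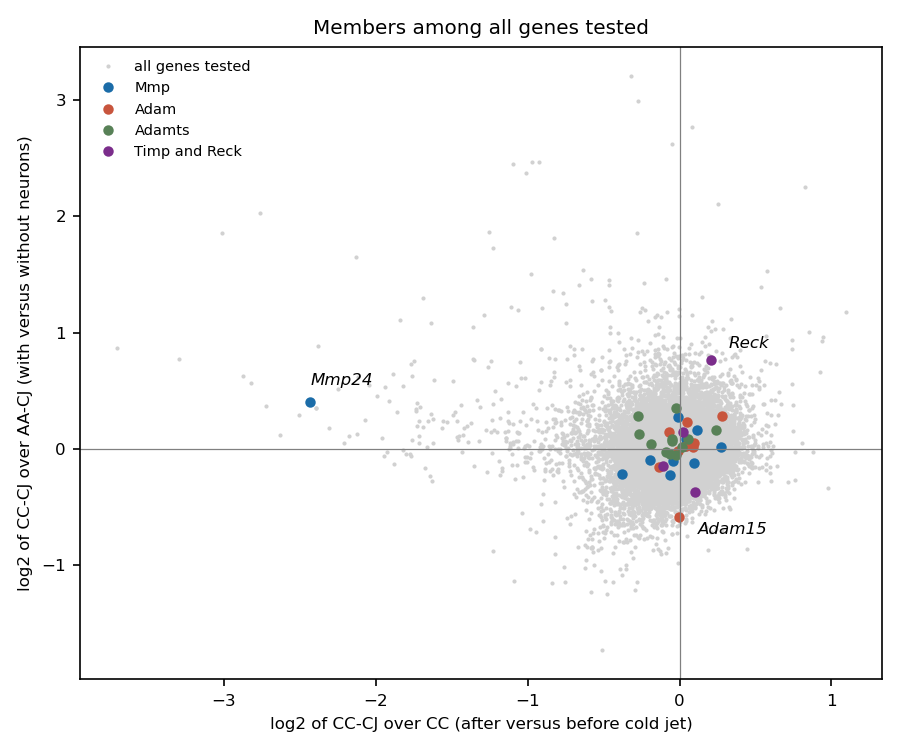
Log2 of CC-CJ over CC (horizontal axis) and log2 of CC-CJ over AA-CJ (vertical axis) of the 36 members, coloured by family, on the 21386 genes tested in grey; both axes hold CC-CJ, so they are not independent. Reck lies at 0.77 on the vertical axis and 0.21 on the horizontal, Adam15 at -0.58 and -0.0009, Mmp24 at 0.40 and -2.43, and the other members near the centre.

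Genes that act with these enzymes were read from a list of 66 related genes, of which 61 had a probe and 48 were tested. In CC-CJ over AA-CJ, 2 of 48 were called higher and 1 lower, where 1.92% and 1.15% of all genes were. In CC-CJ over CC, 2 were lower (2.24% of all genes), and in CC over AA-CJ, 3 were higher (2.56% of all genes). These counts, and those of the groups within the list, are small and were not tested as sets. The plasminogen system, a protease cascade that can activate pro-Mmps, had 1 called gene of 6 tested, Serpine2. This inhibitor of thrombin and of plasminogen activators fell in CC-CJ over AA-CJ, with M of -0.55 and -0.74 (difference -0.65, adjusted p = 0.0453 from limma). None of the 6 tested other metalloproteases and general inhibitors and none of the 5 tested convertases was called by limma in any comparison.

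Among partners of the Adam proteins, 1 of 10 tested was called. Tspan17, a tetraspanin that associates with Adam10 and is listed under its older name Fbxo23, was at -0.51 and -0.60 on the CC arrays (difference -0.56, adjusted p = 0.0206 from limma). Among 21 shed or cleaved substrates tested, L1cam and Vcan were among those called. L1cam, an adhesion molecule of axons, was at -3.19 and -3.40 on the CC arrays, with differences of 4.07 in CC over AA-CJ and 0.77 in CC-CJ over AA-CJ. Vcan, versican, listed as Cspg2, was 1.06 higher in CC than in AA-CJ, where its cleaving enzymes Adamts1 and Adamts9 were at 0.37 and 0.56 without a call. Part of the neuron markers given above moved the same way as L1cam. The part of neuronal RNA in its values was not tested.

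Other cell types were checked by their markers. Of 10 astrocyte markers, all tested, Aqp4 was called, at 0.51 in CC-CJ over AA-CJ, and the summed intensity was 36101 to 40749 over the 8 channels. Of 4 microglia markers tested out of 8, Aif1 and Tyrobp fell from CC to CC-CJ, and their list's sum was 413 and 503 in AA-CJ, 520 to 582 in CC-CJ, and 817 and 783 in CC. Tyrobp rose by 0.77 in CC-CJ over AA-CJ and the endothelial marker Kdr by 2.62, while 5 of the 8 endothelial markers were not well above background on any array. Mag and Sox10, of the oligodendrocyte lineage, and Col1a2 and Dcn, of fibroblasts and meningeal cells, fell from CC to CC-CJ too. Their part in the values of Reck, Adam15 and Mmp24 was not tested.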

How the data were processed

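The arrays held RNA of CC-CJ (Cy3) with AA-CJ (Cy5) on 2 arrays and with CC (Cy5) on the other two, and no dye was swapped. The authors deposited the spot intensities of Agilent Feature Extraction 9.5.1.1, with mean signal and local background on a linear scale. A log10 ratio of Cy5 over Cy3, after Agilent's own correction, is deposited beside them. A series table deposited by the authors holds log2 values whose base and direction are not stated. Their correlation with log2 of Cy5 over Cy3 computed here was 0.930 to 0.973 per array, with a slope of 0.931 to 1.23, so they were read as log2 of Cy5 over Cy3. The methods name OLIN and OSLIN normalization.

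From the intensities, background was corrected with normexp (offset 50), control and outlier spots were left out, and M was normalized within arrays by loess (span 0.3) in limma 3.58.1 under R 4.3.3. The offset draws differences of dim probes towards 0. Spots of a probe, then kept probes of a gene, were averaged. Levels per channel were taken after loess and Aquantile scaling, carry an intensity that depends on the probe, and were compared within a gene only. Of all probes, 50.1% to 62.6% were well above background per channel, and no member spot was saturated. Having 4 arrays limits the precision. Groups and replicate numbers came from the sample titles. limma was fitted on all 4 arrays with 2 residual degrees of freedom (prior 4.71), and p was adjusted over 21386 genes by Benjamini-Hochberg. Scripts were tested on simulated data. Replicates came from different pools of animals, and the p-values rest on 2 per comparison.

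Deviations of same-numbered arrays correlated at -0.111 over 21382 genes, so the numbers were not taken to pair the arrays. Genes named were those of a list of main members, every called member and the 5 with the largest difference per comparison. The members and lists were chosen with earlier results of these data known. Alternatives tried were the background correction, offset, normalization, filter, prior, probe-level fit, replicate block and leaving out each array. A planned division of Adam genes by their zinc-binding motif was not made, since no protein sequences were used here. Adam22 was not analysed here. The values of 1 related gene are not reported here.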

Additional observations from a re-analysis of the deposited data

How the results depend on the processing

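Mmp24 was called lower in CC-CJ than in CC in 19 of 19 settings (-3.49 to -2.33) and higher in CC than in AA-CJ in 18 of 18 (2.70 to 3.48). Its remaining share was 18.6% without subtraction of the AA-CJ level, 3.28% with the CC-CJ of the AA-CJ arrays, and 8.72% to 11.9% without 1 replicate.

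In CC-CJ versus AA-CJ, where 2 members were called, 0 were with background subtraction, the scanner's log ratio, or a trended and robust prior. The count was 1, Reck, with an offset of 10, with loess on intensity and location, with the series table and with the replicate block, and 0 to 2 without 1 replicate. Adam15 lost its call in 9 of these settings. Under median centring in place of loess, the median of all genes was -0.48 in CC-CJ versus AA-CJ and -0.59 in CC-CJ versus CC. There 21 members were called in CC-CJ versus AA-CJ (3 of them higher) and 21 in CC-CJ versus CC (1 higher). Among the genes named here, the values that turned sign and were called were, against AA-CJ, -0.60 for Adamts9, -0.78 for Mmp11, -1.27 for Mmp14, -0.62 for Mmp2, -0.37 for Reck and -1.53 for Timp1, and, against CC, -0.55 for Mmp11, -1.21 for Mmp14, -0.94 for Reck, -1.42 for Timp1 and -0.89 for Timp3. The cause was not tested.

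The replicate block, which pairs arrays of the same number, moved the count in CC-CJ versus AA-CJ from 2 to 1, with Adam15 at an adjusted p of 0.0684, and changed no other call. The crossed pairing, chosen after seeing the data, gave 3, 1 and 1 calls. Values of genes called under neither setting were counted as unchanged whatever their sign. Members near the lowest levels are limited by signal over background.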
